A study of Mus musculus with 7 samples.

Results

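The genes of hepatic gluconeogenesis and the fasting response described here in mouse liver RNA-seq are Pck1, G6pc, Fbp1, Pcx, Ppargc1a, Igfbp1, Tat, Irs2, Foxo1 and Slc2a2. They were taken by gene symbol from the deposited tables, in which each had 1 row among 37468. All 10 belonged to the 15744 genes tested, those with 1 FPKM or more in any of the libraries. FPKM is a fragment count scaled to transcript length and to the size of the library, so levels can be set side by side between genes. Ppargc1a reached that level in 6 of 7 libraries, in every group, and the other 9 reached it in all 7.

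Gluconeogenesis is the synthesis of glucose from lactate, amino acids and glycerol, by which the liver feeds the blood during fasting. Glucagon, acting through cAMP, and glucocorticoids raise transcription of its key enzymes. Insulin, acting through the insulin receptor substrates and the kinase Akt, keeps the transcription factor Foxo1 out of the nucleus and lowers them. Several of these transcripts are short-lived and follow the last meal and the time of day closely.

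The 7 libraries were made from total liver RNA of C57BL/6 mice. A single library came from the liver labelled Myod1 active (Myod1_active) and 2 from livers labelled Myod1 control (Myod1_control), and all 3 of these mice carried SunTag-dCas9. Another 2 came from livers of the SunTag genotype (SunTag) with no further treatment named, and the last 2 from wild-type livers (WT). SunTag-dCas9 is a knock-in of a nuclease-dead Cas9 whose peptide tail recruits effector proteins to a guided site; in the Myod1_active liver the target was the muscle regulator gene Myod1. The promoter that drives it, what the Myod1_active and Myod1_control mice were given, and the age, sex, feeding state and hour of collection are not given in the sources used here, nor is it said whether replicates were separate animals. If they were not, the p-values measure only technical spread.

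Myod1 itself was at 3.52 FPKM in the Myod1_active library and listed at 0 in the other 6. The hepatocyte markers Alb, Apoa1, Ttr, Serpina1a and Hnf4a were present in all 7 libraries. Their summed level was 41413 to 45525 FPKM in the 3 libraries of the Myod1 experiment, against 62499 to 75265 FPKM for SunTag and WT livers. Alb made most of it, at 28499.7 to 35431.1 FPKM in the Myod1 experiment and 46475.9 to 54092.5 FPKM in SunTag and WT livers. Ttr was also lower in the Myod1 experiment, while Apoa1, Serpina1a and Hnf4a overlapped. Kidney proximal tubule markers, from the other main gluconeogenic organ, summed to at most 0.612 FPKM, and Ins1, Ins2, Gcg, Iapp and Sst of the islet were at 0 throughout. The 2 sets of libraries differed in sex: Xist was at 0.00420 to 0.324 FPKM in the Myod1 experiment and 56.9 to 82.2 FPKM in SunTag and WT livers, and the Y-linked Ddx3y was at 6.97 to 9.23 FPKM in the Myod1 experiment and at most 0.0765 FPKM in SunTag and WT livers. SunTag replicate 1 stood apart from its set: its correlation across genes with the other 3 libraries was 0.943 to 0.948, and those 3 correlated at 0.955 to 0.958 with each other.

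The promoters of the 3 members with the widest spread between replicates, Igfbp1, G6pc and Pck1, are shown because insulin and cAMP are known to act on these genes through elements near their starts. Each line holds 250 bases before to 50 bases after the annotated start, 5′ to 3′ on the plus strand, from RefSeq on GRCm38.p6 (not the mm9 build of the expression tables), at chr11:7197537-7197836 for Igfbp1, chr11:101367466-101367765 for G6pc and chr2:173152823-173153122 for Pck1. Capitals mark the core of the insulin response element in Igfbp1 and G6pc, and the half-site of the cAMP response element in Pck1.
Igfbp1: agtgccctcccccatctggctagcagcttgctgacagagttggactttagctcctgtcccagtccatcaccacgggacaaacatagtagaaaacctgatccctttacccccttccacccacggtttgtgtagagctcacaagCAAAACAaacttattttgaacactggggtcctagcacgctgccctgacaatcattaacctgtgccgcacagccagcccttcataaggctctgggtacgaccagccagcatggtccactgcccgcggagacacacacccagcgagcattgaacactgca
G6pc: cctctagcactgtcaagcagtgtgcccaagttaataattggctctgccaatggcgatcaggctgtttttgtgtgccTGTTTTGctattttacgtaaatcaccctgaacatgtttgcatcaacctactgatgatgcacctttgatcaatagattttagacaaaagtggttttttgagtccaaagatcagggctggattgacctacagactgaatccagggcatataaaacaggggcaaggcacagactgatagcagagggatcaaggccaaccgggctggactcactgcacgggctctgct
Pck1: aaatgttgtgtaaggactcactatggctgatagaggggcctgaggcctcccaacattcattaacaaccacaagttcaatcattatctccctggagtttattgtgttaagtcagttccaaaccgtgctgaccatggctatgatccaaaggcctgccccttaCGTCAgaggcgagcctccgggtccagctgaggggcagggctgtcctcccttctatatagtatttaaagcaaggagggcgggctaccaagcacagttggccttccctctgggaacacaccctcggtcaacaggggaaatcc

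The insulin response core, searched as CAAAACA or TGTTTTG on either strand, lay at position -108 in Igfbp1, at -174 in G6pc, and at -37 in Irs2. It was present in 6.28% of the 32851 promoter windows of the table. The cAMP half-site, TGACG or CGTCA, lay at -90 in Pck1 and at -49 in Ppargc1a, and 20.8% of windows held it. No member's window held the full cAMP element TGACGTCA (1.79% of windows), the forkhead motif TGTTTAC or GTAAACA (3.65%) or the glucocorticoid receptor half-site TGTTCT or AGAACA (19% of windows). These are matches of letters in 11 windows of the 10 members, Pcx having 2.

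Of the 4 enzymes that set gluconeogenesis apart from glycolysis, Pck1 varied most over the 7 livers. Pck1 (ENSMUSG00000027513, mm9 chr2:172978549-172984774) makes phosphoenolpyruvate from oxaloacetate. Its level was 209.7 FPKM in Myod1_active, 636 and 403 FPKM in Myod1_control, 1159 and 566 FPKM in SunTag, and 977 and 1143 FPKM in WT. The Myod1_active library was the lowest of the 7, and the highest library held 5.53 times as much.

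G6pc (ENSMUSG00000078650, mm9 chr11:101228875-101239217) encodes the glucose-6-phosphatase catalytic subunit, which releases free glucose. It was at 117 FPKM in Myod1_active, 167 and 149 FPKM in Myod1_control, 323 and 196 FPKM in SunTag, and 134 and 284 FPKM in WT. The 2 WT livers differed by 2.13 times, and they bracketed both Myod1_control livers and SunTag replicate 2. For G6pc and for Igfbp1 the deposited FPKM lay outside its own deposited confidence bounds in all 7 libraries, so those bounds were not used as errors. The same held for Pck1 in all but 2 libraries and for Tat in all but 3. Fbp1 lay inside its bounds in 5 of 7 libraries and Pcx in 6 of 7, and the remaining members in all 7. In WT replicate 1, Fbp1 was at 857 FPKM against bounds of 752 to 778 FPKM.

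Fbp1 (ENSMUSG00000069805, mm9 chr13:62966113-62989642) encodes fructose-1,6-bisphosphatase. Its level was 472 FPKM in Myod1_active, 395 and 359.8 FPKM in Myod1_control, 1279.7 and 914 FPKM in SunTag, and 857 and 853 FPKM in WT. All 3 libraries of the Myod1 experiment were below all 4 SunTag and WT libraries. Pcx (ENSMUSG00000024892, mm9 chr19:4510472-4621752) encodes pyruvate carboxylase, the mitochondrial entry step. It stood the other way, at 154 FPKM in Myod1_active, 173 and 229 FPKM in Myod1_control, 101 and 122 FPKM in SunTag, and 136 and 134 FPKM in WT. The lowest Myod1-experiment library exceeded the highest of the other 4. The 2 enzymes of the same pathway thus stood on opposite sides of the split between the experiments.

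Ppargc1a and Foxo1 encode regulators of these enzymes, the coactivator PGC-1alpha and the forkhead factor Foxo1. Ppargc1a (ENSMUSG00000029167, mm9 chr5:51845488-51958964) was the lowest member in every group. It was at 3.84 FPKM in Myod1_active, 3.14 and 3.13 FPKM in Myod1_control, 1.32 and 0.919 FPKM in SunTag, and 2.32 and 1.19 FPKM in WT. Foxo1 (ENSMUSG00000044167, mm9 chr3:52072259-52154031) was at 4.81 FPKM in Myod1_active, 5.23 and 5.17 FPKM in Myod1_control, 8.97 and 5.10 FPKM in SunTag, and 10.5 and 9.53 FPKM in WT. For Foxo1, SunTag replicate 1 was near the WT livers and replicate 2 within the range of the Myod1 experiment.

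Irs2 (ENSMUSG00000038894, mm9 chr8:10986980-11008458) encodes an adaptor of the insulin receptor whose transcript is itself repressed by insulin. It was at 7.02 FPKM in Myod1_active, 14.4 and 8.84 FPKM in Myod1_control, 4.93 and 4.02 FPKM in SunTag, and 3.40 and 5.03 FPKM in WT. All 3 Myod1-experiment libraries were above the other 4. Irs2 ranked above Foxo1 in both groups of that experiment and below it in SunTag and WT livers, with no overlap between the 2 genes' values in any group.

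Igfbp1 (ENSMUSG00000020429, mm9 chr11:7097785-7102549) encodes a secreted binding protein of insulin-like growth factors and is a classic insulin-repressed transcript. It was at 105 FPKM in Myod1_active, 105 and 51.1 FPKM in Myod1_control, 247 and 84.7 FPKM in SunTag, and 43.7 and 177 FPKM in WT. The 2 WT livers held the lowest value and the second highest of the 7, so that no group stood apart from the others.

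Tat (ENSMUSG00000001670, mm9 chr8:112514337-112523703) encodes tyrosine aminotransferase, a glucocorticoid-induced enzyme of amino acid breakdown. It had the highest mean level of the 10 in every group, at 803 FPKM in Myod1_active, 595 and 685 FPKM in Myod1_control, 1582 and 1090.3 FPKM in SunTag, and 1082 and 1298 FPKM in WT. Like Fbp1, it was lower in all 3 Myod1-experiment libraries than in the other 4. Slc2a2 (ENSMUSG00000027690, mm9 chr3:28596825-28627278) encodes GLUT2, the glucose transporter of the hepatocyte membrane. It was at 91.9 FPKM in Myod1_active, 73.1 and 69.4 FPKM in Myod1_control, 27.6 and 60.1 FPKM in SunTag, and 59.1 and 66.0 FPKM in WT. SunTag replicate 1 was the lowest of the 7, far below the next library at 59.1 FPKM.

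**Figure D1:**
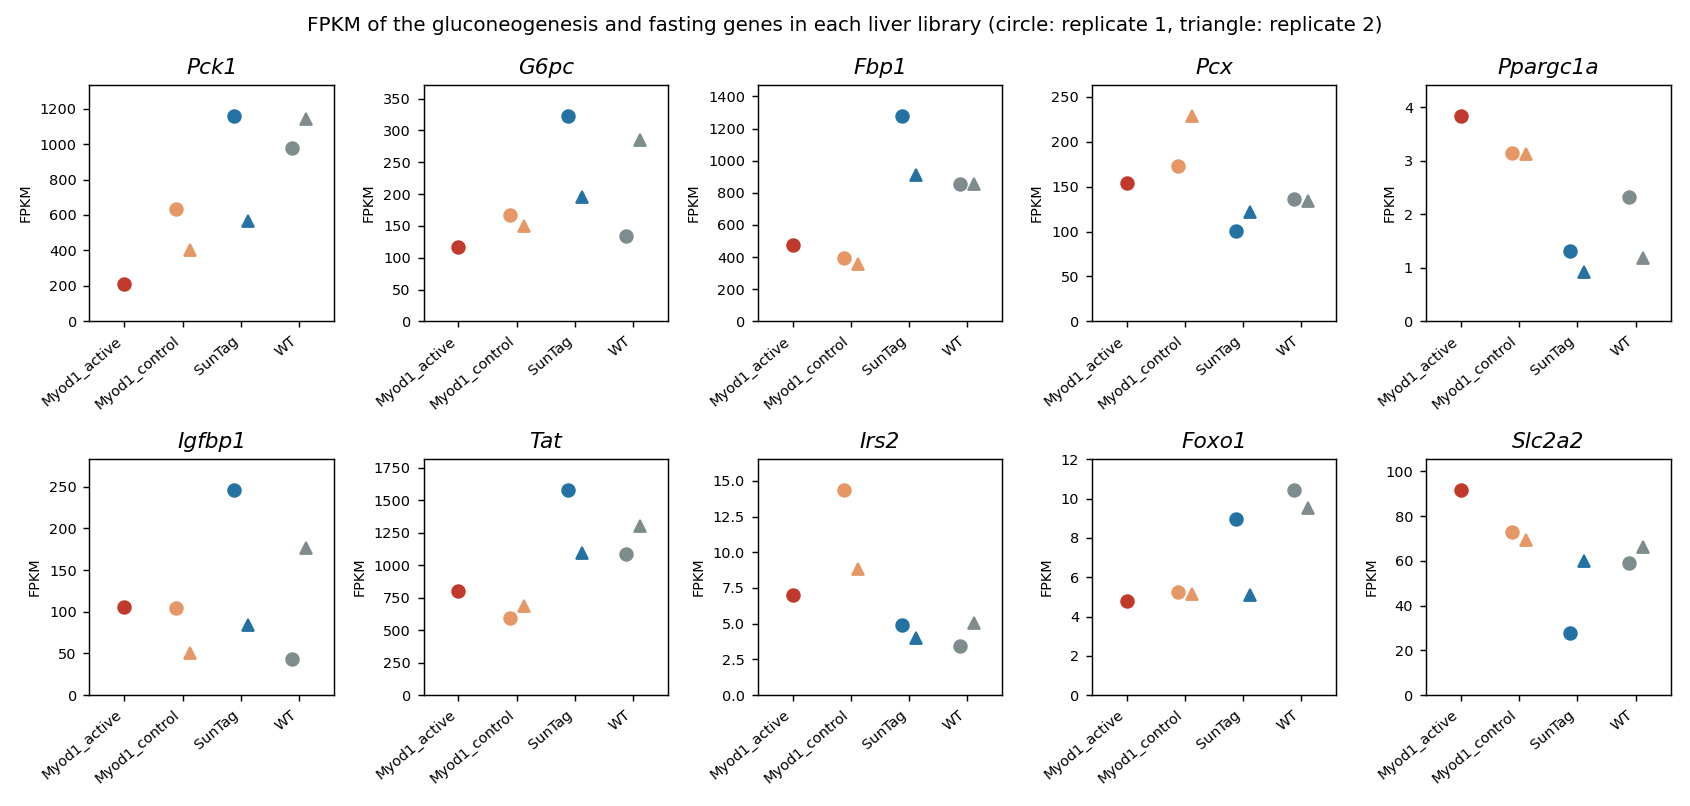
FPKM (y axis, linear, from 0) of each of the 10 genes in the 7 liver libraries, by group (x axis); circles are replicate 1 and triangles replicate 2. Pck1 was lowest in Myod1_active at 209.7 FPKM, and Fbp1 and Tat separated the Myod1 experiment from SunTag and WT livers.

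By mean level, Tat, Pck1 and Fbp1 took the first 3 ranks in every group, and over all 7 libraries each exceeded at least 98.9% of tested genes. Some neighbours in this order did not differ beyond their spread: the ranges of Tat and Pck1 overlapped in Myod1_control and WT, and those of Tat and Fbp1 and of Fbp1 and Pck1 in SunTag. G6pc, Pcx, Igfbp1 and Slc2a2 followed. Of these, Igfbp1 and Slc2a2 overlapped in Myod1_control and WT, Igfbp1 and Pcx in SunTag and WT, G6pc and Igfbp1 in SunTag, and G6pc and Pcx in WT. Irs2, Foxo1 and Ppargc1a came last. Irs2 and Foxo1 lay above only 51.7% and 52.5% of tested genes, and Ppargc1a above 26.2%.

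The members differed widely in how well replicates agreed. The pooled SD between replicates, on the log2(FPKM + 1) scale, was 1.12 for Igfbp1, 0.55 for G6pc, 0.50 for Pck1 and 0.47 for Slc2a2, against a median of 0.20 over the tested genes. Those of Irs2, Foxo1, Tat, Ppargc1a and Pcx were 0.35, 0.27, 0.26, 0.23 and 0.21, and Fbp1 had the smallest at 0.19. Among tested genes, 96.2% varied less than Igfbp1, 91.4% less than G6pc and 89.9% less than Pck1. The higher Igfbp1 value exceeded the lower by 2.05 times in Myod1_control, 2.91 times in SunTag and 4.05 times in WT.

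**Figure D2:**
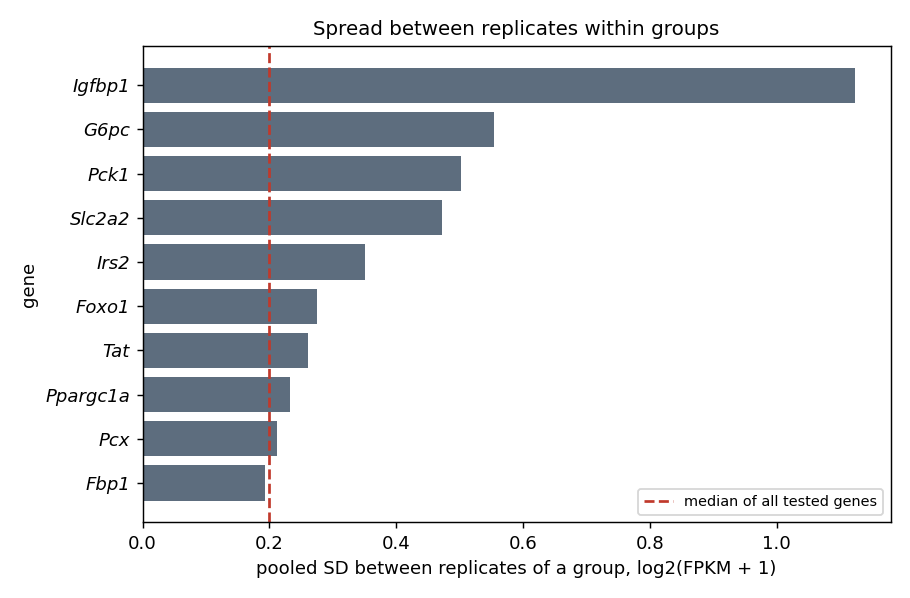
Pooled SD between replicates of a group in log2(FPKM + 1) units (x axis) for each of the 10 genes (y axis); the dashed line is the median of all tested genes. Igfbp1, at 1.12, had the widest spread, and Fbp1, at 0.19, lay beside the median of 0.20.

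Among the 4 SunTag and WT livers, Igfbp1 ran in the order WT replicate 1, SunTag replicate 2, WT replicate 2 and SunTag replicate 1, low to high. G6pc and Tat had the same order, which makes 3 of the 10 members with Igfbp1 itself, and 4.13% of all tested genes had it. This order was picked after the values were seen and crosses the genotypes. Sik1, a cAMP-induced kinase, shared it at 17.2 and 9.94 FPKM in SunTag and 3.43 and 10.5 FPKM in WT, as the only gene of 30 in a list of glucagon and cAMP signalling. So did 3 of 28 other fasting and glucocorticoid-induced genes (Ddit4, Dusp1 and Tsc22d3), 2 of 25 other gluconeogenesis genes (Got1 and Ldha), 1 of 24 of amino acid catabolism (Got1), 1 of 16 clock genes (Bhlhe40) and 1 of 13 periportal markers (Ass1). None of the insulin signalling, feeding-induced or pericentral genes did.

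The first comparison asked what activation of Myod1 did to these genes in SunTag-dCas9 livers. None of the 10 passed limma's test with Benjamini-Hochberg adjustment over all genes (threshold 0.05), and 0 had an unadjusted p under 0.05. Of all tested genes, 0.254% passed, Myod1 among them (adjusted p = 0.0327), and 19.5% had an unadjusted p under 0.05. With a single Myod1_active library, the test assumes that it varies as the other groups do. The differences given are of log2(FPKM + 1), Myod1_active minus Myod1_control, after taking off the median gene. That gene stood 0.25 higher in Myod1_active than in Myod1_control. The p-values belong to the differences before it was taken off. With median-ratio scaling 2 members had an unadjusted p under 0.05 by limma, and with quantile normalization 1 did, but 0 passed after adjustment.

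Pck1 had the lowest value of this contrast, with a mean of 209.7 FPKM in Myod1_active against 519 ± 165 FPKM in Myod1_control (SD, n = 2), a ratio of 0.404. Its log2 difference was -1.52 (SE 0.51, adjusted p = 0.265), and the adjusted p was 0.167 to 0.494 over the alternatives. Before the median gene was taken off, its 95% interval ran from -2.58 to 0.05. Irs2 stood at -0.87 (adjusted p = 0.366), G6pc at -0.68 (adjusted p = 0.667) and Pcx at -0.62 (adjusted p = 0.419). Foxo1 was at -0.35, Ppargc1a at -0.03, Fbp1 at 0.07, Tat at 0.08, Slc2a2 at 0.11 and Igfbp1 at 0.26. The median member was at -0.19, and 6 of 10 lay below the median gene, where 50% of all genes lie.

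The Myod1_active library lay outside the Myod1_control values for all 10 members, above for 5 and below for 5, as it did for 78% of tested genes (61.4% above and 16.6% below). After median-ratio scaling of the libraries, it lay above for Slc2a2 alone, below for 6 (Pck1, G6pc, Pcx, Irs2, Foxo1 and Ppargc1a) and among the control values for 3, against 72% of genes outside. Ppargc1a was above the control values without that scaling and below them with it. The 95% intervals of the members reached 0.61 to 2.75 log2 units to either side. These intervals are not adjusted for the number of genes tested. A call after adjustment needed a difference wider than its interval, so differences beyond these widths could also go uncalled.

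The other pathway lists gave 0 calls in this contrast as well. Of 28 other fasting and glucocorticoid-induced genes, 21 lay below the median gene, and their median was -0.66. Angptl4, a secreted lipase inhibitor, was at 11.2 FPKM in Myod1_active and 69.6 and 61.3 FPKM in Myod1_control (adjusted p = 0.155). Acot1, an acyl-CoA thioesterase, was at 12.6 FPKM in Myod1_active and 38.0 and 74.0 FPKM in Myod1_control (adjusted p = 0.165). Zbtb16, a glucocorticoid-induced zinc finger factor, had 2.63 FPKM in Myod1_active and 11.3 and 10.3 FPKM in Myod1_control (adjusted p = 0.240). Without Myod1_control replicate 2 the list's median was -0.42.

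The 19 tested genes induced by feeding or insulin had a median of 0.22, with 12 above the median gene. Fasn, the fatty acid synthase, was at 673 FPKM in Myod1_active and 174 and 380 FPKM in Myod1_control (adjusted p = 0.361). The 25 other enzymes and shuttles of gluconeogenesis had a median of 0.13. Pck2, the mitochondrial counterpart of Pck1, was at 4.28 FPKM in Myod1_active and 1.06 and 0.731 FPKM in Myod1_control (adjusted p = 0.104), on the opposite side from Pck1. In the list of glucagon and cAMP signalling, with a median of 0.00, the liver factor Creb3l3 was at 134 FPKM in Myod1_active and 228 and 235 FPKM in Myod1_control (adjusted p = 0.165). Cebpb, a factor induced by cAMP, was at 198 FPKM in Myod1_active and 120.1 and 83.6 FPKM in Myod1_control (adjusted p = 0.351). The medians of the insulin signalling, amino acid catabolism and clock lists were -0.04, -0.11 and -0.05. Periportal markers, from the zone where gluconeogenesis is strongest, had a median of -0.07 and pericentral markers one of -0.42, led by Cyp2e1 at 1203 FPKM in Myod1_active and 2896 and 3045 FPKM in Myod1_control (adjusted p = 0.209). Of the 13 periportal markers, 6 lay above the median gene and 7 below. Apoa4 lay highest, at 1063 FPKM in Myod1_active and 173 and 38.6 FPKM in Myod1_control, a log2 difference of 3.43. The pericentral median was -0.67 without Myod1_control replicate 1 and -0.10 without replicate 2. Without those control replicates in turn, the other gluconeogenesis median was 0.03 and 0.24, that of feeding-induced genes 0.13 and 0.15, and that of clock genes -0.18 and 0.07.

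The second comparison asked whether the SunTag-dCas9 knock-in itself moved these genes. None of the 10 passed between SunTag and WT livers by limma (adjusted p = 1 for each), and 0 had an unadjusted p under 0.05, against 0.127% and 1.95% of all tested genes. The groups did not overlap for 3 members: Fbp1 was higher in both SunTag livers, and Pcx and Foxo1 were lower in both. Over all tested genes, 25.8% had groups that did not overlap, 13% higher and 12.8% lower in SunTag. The log2 difference was 0.32 for Fbp1 (SE 0.20), -0.30 for Pcx (SE 0.19) and -0.51 for Foxo1 (SE 0.25).

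For the other 7 members, values of SunTag and WT livers overlapped. Slc2a2 was at -0.62, Pck1 at -0.40, Ppargc1a at -0.37, Irs2 at 0.07, Tat at 0.13, G6pc at 0.35 and Igfbp1 at 0.69, whose interval reached 2.25 log2 units to either side. SunTag replicate 1 had the highest Pck1, G6pc, Fbp1, Igfbp1 and Tat and the lowest Pcx and Slc2a2 of the 4. Without it, Slc2a2 was at -0.05, Fbp1 at 0.10, Pcx at -0.14, Pck1 at -0.90, G6pc at 0.01, Igfbp1 at -0.06 and Tat at -0.12. Without SunTag replicate 2, Slc2a2 was at -1.16, Fbp1 at 0.57, Pck1 at 0.12 and Foxo1 at -0.16. Without WT replicate 1, G6pc was at -0.22 and Ppargc1a at -0.10. The 9 pathway lists held 0 calls here. The median of the pericentral markers was -0.19, with 11 of 13 below the median gene, but 0.10 with 3 of 13 below without SunTag replicate 1, and -0.68 without SunTag replicate 2.

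**Figure D3:**
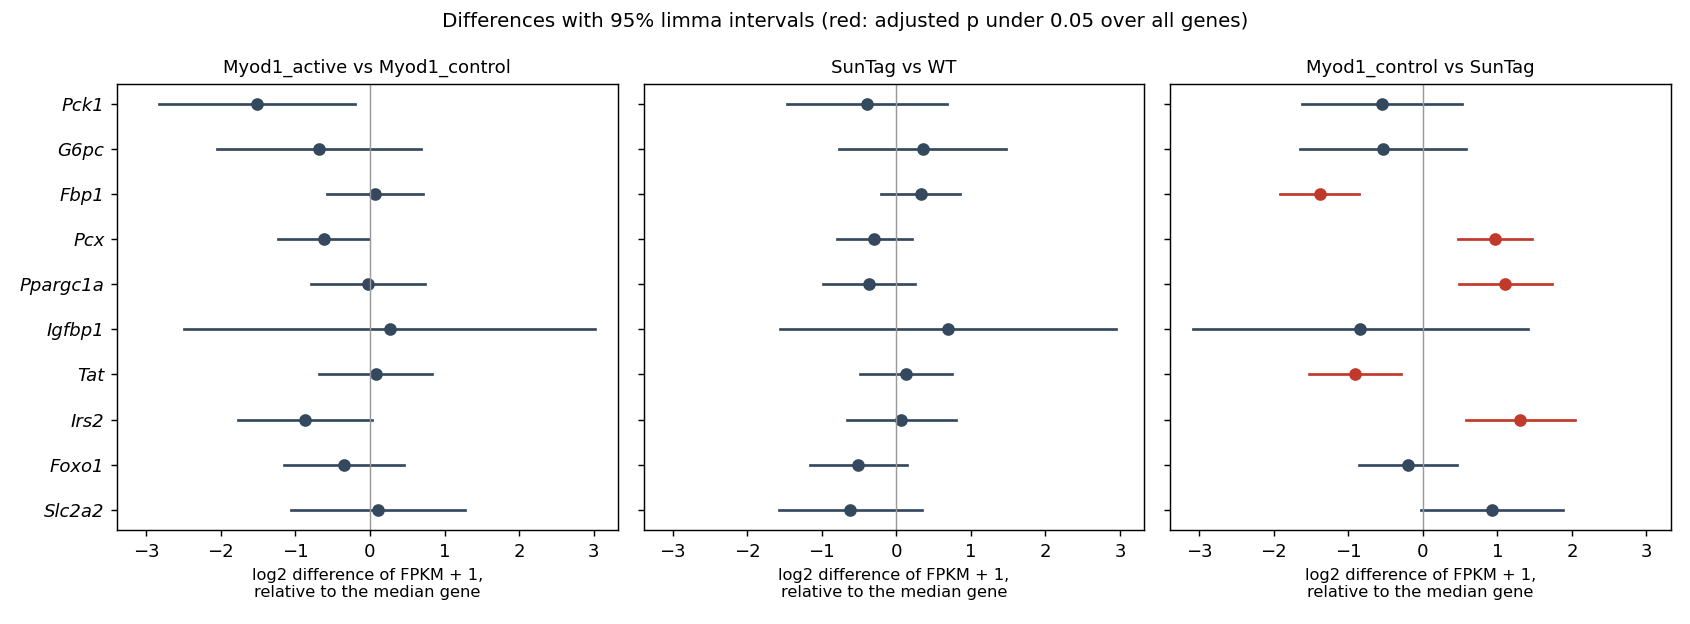
Log2 difference of FPKM + 1 relative to the median gene (x axis) for each gene (y axis) in the 3 comparisons, with 95% limma intervals; red marks an adjusted p under 0.05 over all genes. The tests were made before the median gene was taken off, so an interval that clears 0 here, as for Pck1 in Myod1_active against Myod1_control, is no call.

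Setting the Myod1_control livers against the SunTag livers compares the 2 sets of SunTag-dCas9 mice. They differ in experiment, in sex and in whatever the control mice received, and these cannot be told apart. Of the 10 members 5 passed, 3 higher and 2 lower, where 24.3% of all tested genes passed, 7.3% higher and 17% lower. The balance over all genes turned on scaling: 1149 were higher and 2683 lower here, 1735 and 1846 with median-ratio scaling, and 1757 and 1764 with quantile normalization. Fbp1 fell to 377 ± 24.7 FPKM in Myod1_control against 1097 ± 259 FPKM in SunTag (SD, n = 2 each), a log2 difference of -1.38 (SE 0.20, adjusted p = 0.0191). Tat fell by 0.90 on that scale (adjusted p = 0.0398).

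Irs2 rose to 11.6 ± 3.92 FPKM in Myod1_control against 4.48 ± 0.638 FPKM in SunTag, a log2 difference of 1.31 (SE 0.28, adjusted p = 0.0441). Ppargc1a rose to 2.80 times its SunTag mean (adjusted p = 0.0460), and Pcx was higher by 0.97 log2 units (adjusted p = 0.0408). These 5 calls depended on single libraries: without SunTag replicate 1 Fbp1 alone passed, and without either Myod1_control library or either WT library 0 did. Without a WT library the count over all genes was 48, in place of 3832. Without SunTag replicate 2, 4 members passed: Fbp1, Tat, Slc2a2 (adjusted p = 0.0176) and Foxo1 (adjusted p = 0.0441), while Irs2, Pcx and Ppargc1a did not. Tat also missed the threshold with median-ratio scaling (adjusted p = 0.0644) and quantile normalization (adjusted p = 0.0714), where the other 4 passed.

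Values of Myod1_control and SunTag livers did not overlap for 7 members, these 5, Slc2a2 (higher) and G6pc (lower), where 66.6% of tested genes had no overlap (24.9% higher and 41.6% lower).

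The other 5 did not pass with all libraries. Slc2a2 stood at 0.92 (adjusted p = 0.174), Pck1 at -0.54 (adjusted p = 0.279), G6pc at -0.53 (adjusted p = 0.296), Igfbp1 at -0.84 (adjusted p = 0.437) and Foxo1 at -0.20 (adjusted p = 0.368). Over the experiments as a whole, 6 of 10 members kept all 3 Myod1-experiment libraries apart from the 4 SunTag and WT libraries, where 42% of tested genes did (18.4% higher and 23.6% lower). Fbp1 and Tat were lower, and Pcx, Ppargc1a, Irs2 and Slc2a2 higher. Pck1, G6pc, Igfbp1 and Foxo1 overlapped.

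Summed markers of most other liver cells moved with the same split. The 4 red cell markers with a row summed to 38.4 to 45.8 FPKM in the 3 Myod1-experiment libraries and 2016 to 5423 FPKM over SunTag and WT livers. The globins made that gap, Hba-a1 being at 0.692 to 1.25 FPKM in the Myod1 experiment and 746 to 1927 FPKM in SunTag and WT livers. Alas2, of heme synthesis, went against it, at 34.0 to 44.1 FPKM in the Myod1 experiment and 7.42 to 21.7 FPKM in SunTag and WT livers. Kupffer cell markers summed to 29.0 to 34.8 FPKM in the Myod1 experiment and 174 to 279 FPKM in SunTag and WT livers. Endothelial markers summed to 20.8 to 32.9 FPKM in the Myod1 experiment and 96.4 to 102 FPKM in SunTag and WT livers. Of these, Stab2 overlapped, at 5.31 to 8.70 FPKM in the Myod1 experiment and 7.47 to 14.2 FPKM in SunTag and WT livers. For stellate cell markers the sums were 13.7 to 18.8 FPKM in the Myod1 experiment and 64.0 to 117 FPKM in SunTag and WT livers. Dcn made most of the sum in SunTag and WT livers, at 50.5 to 94.0 FPKM. Col1a1 did not share the gap, at 2.83 to 6.74 FPKM in the Myod1 experiment and 1.81 to 4.84 FPKM in SunTag and WT livers. Neutrophil markers summed to 0.471 to 1.68 FPKM in the Myod1 experiment and 6.51 to 43.8 FPKM in SunTag and WT livers. Of these, S100a8 and S100a9 made most of the sum in SunTag and WT livers, while Camp and Retnlg overlapped. B and T cell markers summed to 0.217 to 0.425 FPKM in the Myod1 experiment and 3.68 to 7.76 FPKM in SunTag and WT livers. Sums of cholangiocyte markers overlapped, at 16.4 to 80.0 FPKM in the Myod1 experiment and 21.7 to 37.0 FPKM in SunTag and WT livers. Spp1 made most of these sums and alone overlapped. Epcam, Krt19 and Krt7 were lower in all 3 Myod1-experiment libraries. Sox9 was higher there, at 5.96 to 7.78 FPKM against 1.38 to 2.83 FPKM in SunTag and WT livers. The part of these markers in the differences of the members was not tested. In bulk liver, fewer cells of a type and less RNA per cell cannot be told apart.

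**Figure D4:**
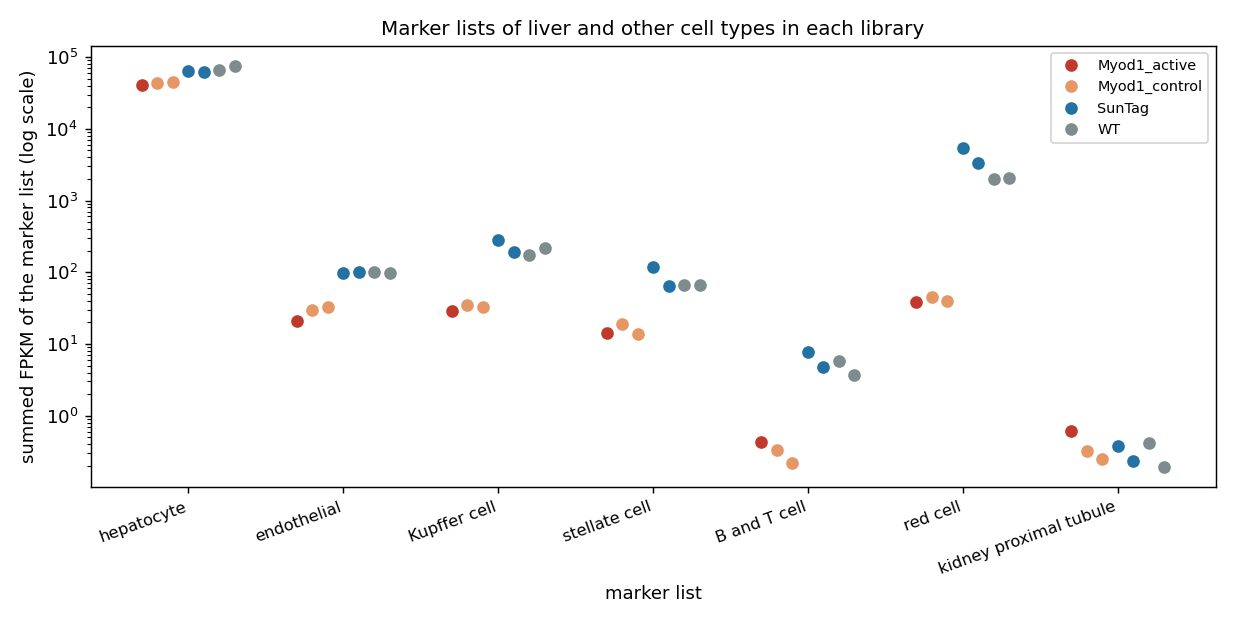
Summed FPKM (y axis, log scale) of marker lists (x axis) in each library, coloured by group; 1 point is 1 library. The sums of red cell, Kupffer, endothelial, stellate and lymphocyte markers were lower in all 3 libraries of the Myod1 experiment. Those of kidney tubule markers were under 1 FPKM throughout.

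Related pathway genes split between higher and lower across the 2 sets of SunTag-dCas9 livers. Of 30 genes of glucagon and cAMP signalling and its transcription factors, 10 rose in Myod1_control, where 7.3% of all genes did, and 0 fell. They included the glucagon receptor Gcgr, at 177 and 183 FPKM in Myod1_control and 72.3 and 107 FPKM in SunTag (adjusted p = 0.0332). Ppara, the fasting-activated nuclear receptor, was at 50.9 and 63.5 FPKM in Myod1_control and 19.5 and 17.4 FPKM in SunTag (adjusted p = 0.0151). The other 8 were Adcy6, Adcy9, Creb3l3, Crebbp, Ep300, Foxa2, Foxo3 and Prkar2a.

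Calls in the lists of other gluconeogenesis enzymes and of amino acid catabolism were in the other direction. Of 25 other gluconeogenesis enzymes and shuttles, 8 fell, among them Gapdh, Got1, Mdh1, Mdh2, Pgam1, Ppa1 and Tpi1, and 0 rose. With median-ratio scaling 2 fell, Gapdh and Got1, and with quantile normalization Got1 alone fell while Got2 and Gpt2 rose. Got1, the cytosolic aspartate aminotransferase, was at 104 and 68.4 FPKM in Myod1_control and 450.3 and 303 FPKM in SunTag (adjusted p = 0.0201). Of 24 enzymes of amino acid catabolism, 8 fell as well, among them Bckdhb, Cth, Got1, Gstz1, Hal, Hgd and Hpd, where 17% of all genes did, and 6 and 5 fell under those scalings. Hpd, which follows Tat in tyrosine breakdown, was at 1173 and 1103 FPKM in Myod1_control and 3109 and 3593 FPKM in SunTag (adjusted p = 0.0167).

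Among 28 other fasting and glucocorticoid-induced genes, 6 rose (Acot1, Angptl4, Cpt1a, Lcn13, Lpin2 and Zbtb16) and 5 fell (Ddit4, Gadd45b, Mt1, Mt2 and Tsc22d3). Within this list the metallothionein Mt1 had the widest gap, at 6.53 and 11.9 FPKM in Myod1_control and 956 and 994 FPKM in SunTag (adjusted p = 0.0075). Of 19 genes induced by feeding or insulin, 4 rose (Acaca, Acacb, Mlxipl and Pfkl) and the glycogen synthase Gys2 fell. Of 19 genes of insulin signalling the receptor Insr alone rose (4 did under either scaling), to 34.0 and 26.0 FPKM in Myod1_control against 8.77 and 11.5 FPKM in SunTag (adjusted p = 0.0201). Clock genes gave 1 call of 16, the output factor Tef, which rose. Of 13 periportal markers Cps1 rose and Arg1, Ass1 and Hal fell (under either scaling Cdh1 and Cps1 rose and Arg1 fell). Of 13 pericentral markers only Rgn was called, and it fell. The pericentral list as a whole lay the other way, with a median of 0.50 and 10 of 13 above the median gene. That median was 0.08 without SunTag replicate 1 and 0.68 without SunTag replicate 2. Over all tested genes 24.3% passed in this contrast, 7.3% higher and 17% lower. The shares were 39.3% for the fasting and glucocorticoid list, 30.8% for periportal markers and 26.3% for feeding-induced genes. Pericentral markers, clock genes and insulin signalling had shares of 7.69%, 6.25% and 5.26%.

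These list counts also depended on single libraries. Without SunTag replicate 1, the glucagon and cAMP list kept 4 calls (Creb3l3, Foxo3, Gcgr and Ppara), amino acid catabolism 4 and the other gluconeogenesis enzymes 0. Without either WT library, or either Myod1_control library, the glucagon and cAMP, other gluconeogenesis, amino acid, insulin signalling and feeding lists had 0 calls, and Mt1 was called in each.

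The genes whose pattern over the 7 libraries was most like each member's were picked by Pearson's r of log2(FPKM + 1) after taking off each library's median, among 6796 genes of mean FPKM 5 or more. Suds3 (r = 0.988) and Zfp385b (r = 0.978) were nearest to Pck1, Cltb (r = 0.976) and Rpl30-ps11 (r = 0.944) to G6pc, and Eif2s2 (r = 0.998) and AW112010 (r = 0.997) to Fbp1. Fgfr2 (r = 0.994) and Hars (r = 0.991) were nearest to Tat, Mcc (r = 0.994) and Trit1 (r = 0.982) to Irs2, and Arhgef19 (r = 0.991) and Tor2a (r = 0.983) to Slc2a2. Pcx was nearest to Dido1 (r = 0.992) and Nln (r = 0.988), Ppargc1a to Cwc22 (r = 0.992) and Brpf3 (r = 0.974), and Foxo1 to Slc7a10 (r = 0.958) and Fam35a (r = 0.951). Igfbp1 had the weakest matches, Ccnt1 (r = 0.908) and H2-D1 (r = 0.907). The 7 points of each r share the split between the experiments, so these values are a description.

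Of the members, 5 overlap another annotated gene, whose reads may not be told apart, since the use of strand is not given in the sources used here. These are Fbp1 with Gm17367, Pcx with Lrfn4, Irs2 with 9530052E02Rik, Foxo1 with Gm20402 and Slc2a2 with 1700112D23Rik. Gm20402 was at 9.36 FPKM in Myod1_active, 10.7 and 9.15 FPKM in Myod1_control, 5.06 and 4.03 FPKM in SunTag, and 6.08 and 5.97 FPKM in WT. It was above Foxo1 in the 3 libraries of the Myod1 experiment and below it in the other 4. Gm17367 was listed at 51.3 FPKM in WT replicate 1 and at 0 in the other 6. In WT replicate 1 the Fbp1 value lay above its own deposited bounds, and a link between these values was not tested.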

How the data were processed

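Liver RNA from 7 libraries was sequenced. The deposited gene tables give FPKM values with lower and upper bounds. Per the submitters' processing notes, cutadapt 1.11, TopHat2 2.1.1, Cufflinks 2.2.1 and build mm9 were named; for their settings, the annotation and the use of strand nothing is given in the sources used here. Since the deposited FPKM are not counts, read depth is unknown; bounds of 4433 genes gave relative depths of 0.948 to 1.08.

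Rows sharing a symbol were summed (244 symbols), 343 rows of failed status were left out, and 15744 genes reaching FPKM 1 in at least 1 library were tested on log2(FPKM + 1) with limma 3.58.1 (R 4.3.3): 1 mean per group over all 7 libraries, a variance trend, 3 residual and 1.93 prior degrees of freedom, two-sided tests, Benjamini-Hochberg adjustment over all genes, threshold 0.05. The median gene's own difference was taken off each difference (shifts of 0.25, 0.01 and -0.14); SE and p come from the unshifted fit. Genes spanning under 300 bp held 40.5 to 57.9% of summed FPKM. The script was tested on simulated data.

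The members and lists were chosen with earlier results of these data known. The rule for named genes took all members, every list gene past the threshold, up to 4 list genes with the widest difference, and 2 most alike genes per member (at least 300 bp, predicted genes and small RNAs left out); the text gives some of these. Same-numbered replicates did not deviate together (r = 0.04, 0.03 and 0.00 over genes), so numbers do not pair libraries. Gene positions are mm9, 1-based. Promoter windows matched all 10 symbols.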

Additional observations from a re-analysis of the deposited data

How the results depend on the processing

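Of 17 alternatives, those that moved a count by over 1.5 times or turned a sign follow. The 40 genes called between Myod1_active and Myod1_control became 23 with a pseudocount of 0.1, 547 with no filter on low values, 20 without genes under 300 bp and 0 with only the libraries of the 2 groups (2611 at an unadjusted p under 0.05), and 48 to 122 on leaving out single libraries. The 20 between SunTag and WT became 101 with no filter, 5 without short genes, and 20 to 78 on leaving out single libraries. The 3832 between Myod1_control and SunTag became 935 with no filter and 48 with only the 2 groups, and 48 to 4036 on leaving out single libraries; the 5 members called there became 0, 0, and 0 to 5 in the same settings. With the replicate number as a block, Myod1_active against Myod1_control had 23 calls, and 3 members (Fbp1, Pcx and Ppargc1a) passed between Myod1_control and SunTag, 6 genes of the glucagon and cAMP list rose there, and the pericentral median of Myod1_active against Myod1_control was -0.03; the numbers pair nothing in the labels. The cause of these shifts was not tested. In Myod1_active against Myod1_control, Fbp1 (0.07) turned to -0.00028 with median-ratio scaling and -0.0199 under the replicate block, and Ppargc1a (-0.03) to 0.23 with no filter, where the median gene is at 0; leaving out single libraries gave -0.24 to 0.77 for Igfbp1 and -0.0306 to 0.19 for Tat. In SunTag against WT it gave -0.90 to 0.12 for Pck1, -0.22 to 0.92 for G6pc, -0.33 to 1.71 for Igfbp1, -0.12 to 0.40 for Tat and -0.19 to 0.32 for Irs2, and in Myod1_control against SunTag -0.56 to 0.16 for Foxo1. No member was called in the other 2 comparisons under any of the alternatives. A library left alone in its group is assumed to vary like the other groups. With FPKM alone, depth sets no stated floor here.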
